A study of Mus musculus with 10 samples.

Results

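Kidneys scarred by ischaemia were compared with the single kidney that a mouse keeps after the other one has been removed. The libraries were chosen by their group labels alone: 8 libraries of injured kidney in 2 arms of 4, and 3 of the 4 libraries of kidney after nephrectomy, 11 of the 32 bulk libraries in all. They come from 3 of the 10 samples of a study of the ligand Indian hedgehog in mouse kidney injury. All mice were labelled 8 weeks old. Injured kidneys were taken 2 weeks after the renal artery on 1 side had been tied for 15 minutes. In the wild-type tamoxifen arm the mice were C57/BL6 and received tamoxifen. In the floxed vehicle arm they were Pax8creERT2;Ihhfl/fl and received no tamoxifen, the drug that activates their inducible Cre recombinase, which the Pax8 promoter drives in tubule cells. The kidneys after nephrectomy came from C57/BL6 mice. The labels give neither a tamoxifen treatment nor the time between operation and harvest for them. Strain thus cannot be told apart from injury in the floxed vehicle arm, nor tamoxifen in the wild-type tamoxifen arm. Time cannot be told apart from injury in either arm.

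After ischaemia, the proximal tubule, the segment that reclaims most of the filtered salt, sugar and amino acids and burns fat to do so, is the first to be damaged. Surviving tubule cells lose their transporters, switch on injury genes and release cytokines that draw in leukocytes and drive fibroblasts to lay down matrix. A kidney left alone after nephrectomy is not scarred. It takes over the work of the lost one and grows, mostly by enlarging its tubule cells, and it has been through an operation but not through ischaemia.

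The injured libraries held 18.2 M to 24.7 M counts each and the nephrectomy libraries 8.32 M to 28.003 M. Nephrectomy library 3 carried a heart profile, with 5.83% of its counts from 10 heart genes, and was left out. Library 1 of that group also held heart RNA, at 0.0615% against at most 0.00158% in the injured libraries, so that all 6 heart genes tested counted as lower in the injured kidney (without library 1, 3 of 6 counted as higher and 0 as lower). Myh6, the heart's alpha myosin, stood at 407 normalised CPM there and at 0.915 and 0.618 in the other nephrectomy libraries. Normalised CPM is a gene's count per 1 M counts of its library, after scaling that total by the trimmed mean of M values (TMM), a factor that corrects for a few very abundant genes. Those factors were 0.741 to 0.778 after nephrectomy and 1.02 to 1.17 after injury. A list of 8 kidney genes took up 2.16% to 2.25% of counts after nephrectomy and 0.564% to 1.60% after injury, and mitochondrially encoded genes 2.78% to 3.88% and 1.27% to 2.94%. Both groups thus held kidney genes, at a lower share after injury. Each group is 1 labelled sample with 4 numbered columns, taken here as 4 libraries. They differed by more than counting noise, but no label ties them to separate mice. The p-values thus measure only how these libraries spread, which may be technical.

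Most of the transcriptome differed between the injured and the remaining kidney. Tested with edgeR (quasi-likelihood, Benjamini-Hochberg adjusted p under 0.05), 11734 of 16784 genes differed, which is 69.9% of those tested. Of these 6144 were higher in the injured kidney (36.6%) and 5590 lower (33.3%). The counts given for gene lists below are to be read beside these shares. Scaled by library totals alone, 10319 were higher and 2537 lower, and the median log2 change of all genes moved from 0.09 to 0.63. Small changes therefore take their direction from the scaling. With TMM, 3540 genes (21.1%) differed by more than 2-fold: 2525 were higher (15.0%) and 1015 lower (6.05%). The 2-fold counts depend on the scaling too: with library totals alone 4308 genes passed, 4062 higher and 246 lower. Without nephrectomy library 2 the 2-fold count with TMM was 2143. In each arm taken alone, 11523 genes passed in the wild-type tamoxifen arm (68.7%: 35.9% higher, 32.8% lower) and 10592 in the floxed vehicle arm (63.1%: 33.2% higher, 29.9% lower), against the same nephrectomy libraries. Both arms and the combined contrast called 5085 genes higher (30.3%) and 4679 lower (27.9%). Levels of the 2 groups did not overlap for 4871 genes on the higher side (29%) and 4770 on the lower side (28.4%) in normalised CPM, and for 8888 (53.0%) and 2021 (12%) in CPM of library totals alone.

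**Figure D1:**
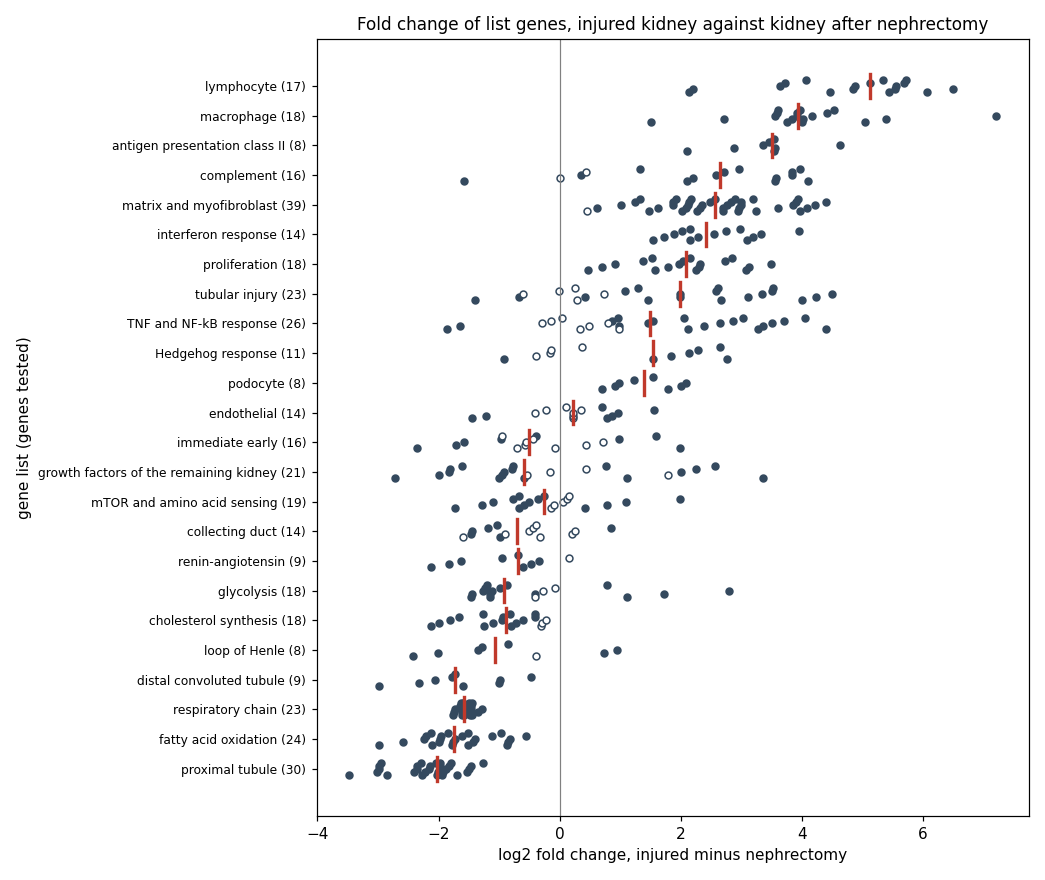
Log2 fold change of injured minus nephrectomy kidneys (x axis) for the genes of 24 lists (y axis, number of genes tested in brackets), with filled circles past an adjusted p of 0.05, open circles not, and a red bar at the list median. Lymphocyte and macrophage genes lie farthest right, at medians of 5.12 and 3.94, and proximal tubule and fatty acid oxidation genes farthest left, at -2.03 and -1.74.

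Genes of damaged tubule were higher in the injured kidney. Of 23 tubular injury genes tested 16 rose, 13 of them by more than 2-fold, and 2 fell (median log2 1.98, against 0.09 for all genes). Lcn2, a siderophore-binding lipocalin that injured tubules release into urine, stood at 43.6, 31.6, 49.2 and 33.9 normalised CPM in libraries 1 to 4 of the wild-type tamoxifen arm, at 53.6, 97.6, 84.9 and 76.1 in those of the floxed vehicle arm and at 3.01, 2.99 and 2.78 in nephrectomy libraries 1, 2 and 4. The groups did not overlap, and every floxed vehicle library lay above every wild-type tamoxifen library. Lcn2 rose by log2 4.23 (SE 0.24, edgeR adjusted p = 1.53e-05), and by 0.98 more in the floxed vehicle arm (SE 0.19, edgeR adjusted p = 0.0476). That difference between the arms passed in 1 of 11 fits that each left out 1 library (edgeR adjusted p = 0.0137 to 0.148).

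Havcr1, which encodes the phosphatidylserine receptor KIM-1 of dedifferentiated tubule, spread more widely. It stood at 30.8, 10.6, 10.9 and 61.6 normalised CPM in the wild-type tamoxifen libraries, 51.6, 29.8, 10.5 and 8.75 in the floxed vehicle arm and 2.22, 2.46 and 2.32 after nephrectomy. All 8 injured libraries lay above all 3 nephrectomy libraries, and the rise was log2 3.52 (SE 0.83, edgeR adjusted p = 0.00327). Krt20, a keratin of urothelium and damaged tubule, rose by 3.34 (SE 0.57), Krt19, a keratin of simple epithelium, by 3.99 (SE 0.45), and Cd44, the hyaluronan receptor of injured tubules and leukocytes, by 4.49 (SE 0.44). Sox9, a transcription factor of repairing tubule and chosen after its values were seen, ran from 8.50 to 42.7 in the injured libraries against 3.01, 2.89 and 3.09, and its rise of 2.66 differed between the arms (log2 1.92 with wild-type tamoxifen and 3.39 with floxed vehicle, edgeR adjusted p of the difference = 0.0168). The Sox9 difference did not pass without wild-type tamoxifen library 3 (edgeR adjusted p = 0.0634) or floxed vehicle library 2 (edgeR adjusted p = 0.0581).

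The 2 members that fell were Hmox1, the haem oxygenase induced by oxidative stress, and Gsta4, a glutathione transferase, both chosen after their values were seen. Hmox1 ranged from 13.5 through a median of 18.2 to 31.7 in the injured libraries and stood at 38.0, 63.8 and 54.4 after nephrectomy (log2 -1.39, SE 0.24, edgeR adjusted p = 0.000574). All 3 nephrectomy libraries lay above all 8 injured libraries. Gsta4 changed by -0.68 (edgeR adjusted p = 0.0266), which did not hold without nephrectomy library 2 (log2 -0.64, edgeR adjusted p = 0.0845) or 4 (log2 -0.66, edgeR adjusted p = 0.0725), nor with library totals alone (log2 -0.14, edgeR adjusted p = 0.613).

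The list of TNF and NF-kB targets split. TNF, a cytokine of leukocytes and stressed epithelium, releases the transcription factor NF-kB, which switches on chemokines, adhesion molecules and its own inhibitors. Of 26 genes 17 rose, 14 by more than 2-fold, and 2 fell (median 1.49). Tnf itself stood at 3.58, 5.42, 3.49 and 1.73 and 4.57, 2.06, 1.91 and 6.67 normalised CPM in the 2 injured arms and at 0.198, 0.193 and 0.309 after nephrectomy, and rose by log2 4.06 (SE 0.63, edgeR adjusted p = 0.000295). Ccl2, the chemokine that draws monocytes, rose by 3.71 (SE 0.43) and Vcam1, an adhesion molecule of endothelium and failed-repair tubule, by 3.51 (SE 0.39). For all 3 genes the injured and nephrectomy libraries did not overlap. The bulk values do not tell more cells of a type from more RNA per cell, here and in every group below.

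Several inhibitors and chemokines of the same list did not rise. Cxcl1, which recruits neutrophils, stood at 10.1, 5.31, 4.34 and 7.37 normalised CPM in the wild-type tamoxifen libraries, 74.0, 53.0, 47.7 and 19.2 in the floxed vehicle arm and 16.2, 103 and 79.3 after nephrectomy. The wild-type tamoxifen libraries were the lowest, the floxed vehicle libraries overlapped the nephrectomy libraries, and nephrectomy library 1 lay far below the other two. Cxcl1 fell (log2 -1.86, SE 0.48, edgeR adjusted p = 0.00554), a call lost without nephrectomy library 2 (log2 -1.38, edgeR adjusted p = 0.0521). Nfkbia, the NF-kB inhibitor, was at -0.29 (SE 0.29, edgeR adjusted p = 0.377) and at log2 0.26, edgeR adjusted p = 0.453 when scaled by library totals alone. Without nephrectomy library 1 it was lower (log2 -0.64, edgeR adjusted p = 0.0217). Cxcl2, a second neutrophil chemokine, was at 0.04 (adjusted p = 0.953 by edgeR), Cxcl10, a T cell chemokine, at -0.14 (adjusted p = 0.855 by edgeR) and Tnfaip3, the A20 inhibitor, at 0.34 (adjusted p = 0.479 by edgeR). Nephrectomy library 1 held the lowest of the 3 nephrectomy levels for 17 of the 26 genes, against 32.1% of all genes, and without it the list counts were 18 and 3.

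Upstream sequences are shown for 4 of these genes because they carry the same NF-kB element while their values in the injured kidney part ways. Each run gives the 200 bases before the RefSeq start on GRCm38.p6, 5′ to 3′ on the gene's strand. Capitals mark a match to the NF-kB motif in either orientation, with any base allowed at its central position. The 3 motifs were searched separately, and overlaps between them were not counted.
Csf1, chr3:107760470-107760669, minus strand: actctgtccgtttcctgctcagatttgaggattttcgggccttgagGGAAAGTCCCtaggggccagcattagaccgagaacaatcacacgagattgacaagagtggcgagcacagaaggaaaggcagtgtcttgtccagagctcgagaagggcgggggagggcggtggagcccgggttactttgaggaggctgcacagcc
Cxcl1, chr5:90891045-90891244, plus strand: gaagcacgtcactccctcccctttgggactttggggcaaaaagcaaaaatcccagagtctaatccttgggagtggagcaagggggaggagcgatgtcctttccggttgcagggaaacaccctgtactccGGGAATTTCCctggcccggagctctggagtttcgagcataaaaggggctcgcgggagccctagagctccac
Cxcl2, chr5:90903699-90903898, plus strand: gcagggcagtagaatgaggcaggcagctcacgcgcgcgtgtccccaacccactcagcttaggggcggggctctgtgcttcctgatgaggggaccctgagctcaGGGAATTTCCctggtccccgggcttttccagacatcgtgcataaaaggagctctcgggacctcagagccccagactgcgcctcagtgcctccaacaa
Nfkbia, chr12:55492648-55492847, minus strand: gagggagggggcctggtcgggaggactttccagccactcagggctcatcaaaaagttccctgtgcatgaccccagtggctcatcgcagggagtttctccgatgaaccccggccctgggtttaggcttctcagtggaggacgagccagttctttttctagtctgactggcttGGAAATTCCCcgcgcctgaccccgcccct
The element was found on either strand in the 300-base windows of 6 of the 20 list genes with a RefSeq window (30%: Csf1, Cxcl1, Cxcl2, Il6, Nfkb2 and Nfkbia) and of 126 of 27025 genes in all (0.466%). It lay 154 bases before the start in Csf1, 71 in Cxcl1, 97 in Cxcl2 and 29 in Nfkbia. Csf1, the macrophage growth factor, rose by log2 2.38 (SE 0.25, edgeR adjusted p = 6.54e-05) and Nfkb2, an NF-kB subunit, by 1.54 (SE 0.20), while Cxcl1 fell and Cxcl2, Il6 and Nfkbia did not pass with all 3 nephrectomy libraries. Il6, the acute-phase cytokine, was at 0.80 (SE 0.56, edgeR adjusted p = 0.221), and without nephrectomy library 1 it was higher (log2 2.18, edgeR adjusted p = 0.0108) while Nfkbia was lower (log2 -0.64, edgeR adjusted p = 0.0217). Of the 6 genes that hold the element, Cxcl1 alone was thus called lower with all 3 nephrectomy libraries. That call was lost without nephrectomy library 2 (log2 -1.38, edgeR adjusted p = 0.0521). The AP-1 motif TGANTCA, which reads the same on both strands, stood in 4 of 17 windows of tubular injury genes (23.5%: Anxa2, Cp, Havcr1 and Sprr2f), against 8.97% of all genes. The HNF1 motif stood in 1 of 25 windows of proximal tubule genes, that of G6pc, against 0.470% of all genes.

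Leukocyte genes had the largest rises of any list. All 17 lymphocyte genes tested rose (median 5.12), all 18 macrophage genes (median 3.94) and all 8 class II antigen presentation genes (median 3.50). Igkc, the kappa light chain constant region of B and plasma cells, stood at 3159.8, 10407, 5862 and 2752 normalised CPM in the wild-type tamoxifen libraries, 2940.0, 638, 150.3 and 3271 in the floxed vehicle arm and 42.9, 30.2 and 30.1 after nephrectomy. Levels within the injured libraries spanned from 150.3 in floxed vehicle library 3 to 10407 in wild-type tamoxifen library 2, and the lowest was still above every nephrectomy library (log2 6.50, SE 1.10, edgeR adjusted p = 0.000482). Jchain, which links secreted antibodies, rose by 6.06 (SE 1.07). Reads of immunoglobulin genes can be shared between near-identical segments, which were counted but, Igkc apart, are not named.

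Among macrophage genes, Lyz2, the lysozyme of myeloid cells, ranged from 267 through 692 to 1116 in the injured libraries and stood at 21.7, 22.1 and 16.8 after nephrectomy (log2 5.04, SE 0.40, edgeR adjusted p = 3.76e-05). Trem2, a lipid receptor of phagocytes, rose by 5.39 (SE 0.44), and Msr1, a scavenger receptor, by 4.52 (SE 0.47). Siglec1, a sialic acid receptor of tissue macrophages, rose by 4.41, Mgl2, a galactose lectin, by 4.46 and Itgax, the integrin CD11c of dendritic cells, by 4.29. Class II genes H2-Aa and H2-Eb1, which present peptides to helper T cells, rose by 3.56 and 3.54, and Ciita, their transactivator, by 3.54. Among the 15 largest rises that met the naming rule were also Ctss, the cathepsin that trims class II complexes, at 4.82, Il18r1, an interleukin 18 receptor chain, at 4.52, and Cd53, a leukocyte tetraspanin, at 4.40, each with an edgeR adjusted p of at most 9.04e-05.

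Among 16 complement genes 13 rose and 1 fell (median 2.65). C3, the hub of the cascade, rose from 30.3, 44.5 and 33.7 normalised CPM to between 357 and 971 (log2 4.09, SE 0.40, edgeR adjusted p = 5.08e-05), and the C1q chains C1qa and C1qb by 3.84 and 3.96. Cfb, the factor B that C3 convertase needs on the alternative pathway, was the exception and fell by 1.58 on the log2 scale (SE 0.24, edgeR adjusted p = 0.000244), from 599, 684 and 594 to between 128 and 322 with no overlap. Cfp, properdin, which stabilises the same convertase, rose by 3.84. These parts of the alternative pathway thus moved in opposite directions.

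Of 6 neutrophil genes tested 1 rose and 2 fell, near the shares of all genes (36.6% and 33.3%). With library totals alone 3 were higher and 1 lower, and without nephrectomy library 2 none was lower, so no direction is given for the list. Csf3r, the granulocyte growth factor receptor, rose by 1.51 (edgeR adjusted p = 0.00239). S100a8, a subunit of calprotectin, stood at 0.577, 0.574, 0.210 and 0.206 normalised CPM in the wild-type tamoxifen libraries, 1.30, 8.23, 15.0 and 5.82 in the floxed vehicle arm and 5.63, 7.42 and 4.94 after nephrectomy. All 4 wild-type tamoxifen libraries lay below the nephrectomy libraries, whereas of the floxed vehicle libraries 1 lay below, 1 within and 2 above the nephrectomy range. The difference between the arms was log2 -4.24 (SE 0.69, edgeR adjusted p = 0.0269), and that of S100a9, its partner, -4.96 (adjusted p = 0.0343 by edgeR). With 1 library left out, the difference passed in 4 of 11 fits for S100a8 (edgeR adjusted p up to 0.0896) and in 2 of 11 for S100a9 (edgeR adjusted p up to 0.112). The combined falls of -1.79 and -2.39 did not pass without nephrectomy library 2 (adjusted p = 0.0577 and 0.0512 by edgeR), and that of S100a8 also failed with library totals alone (log2 -1.26, edgeR adjusted p = 0.0545).

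**Figure D2:**
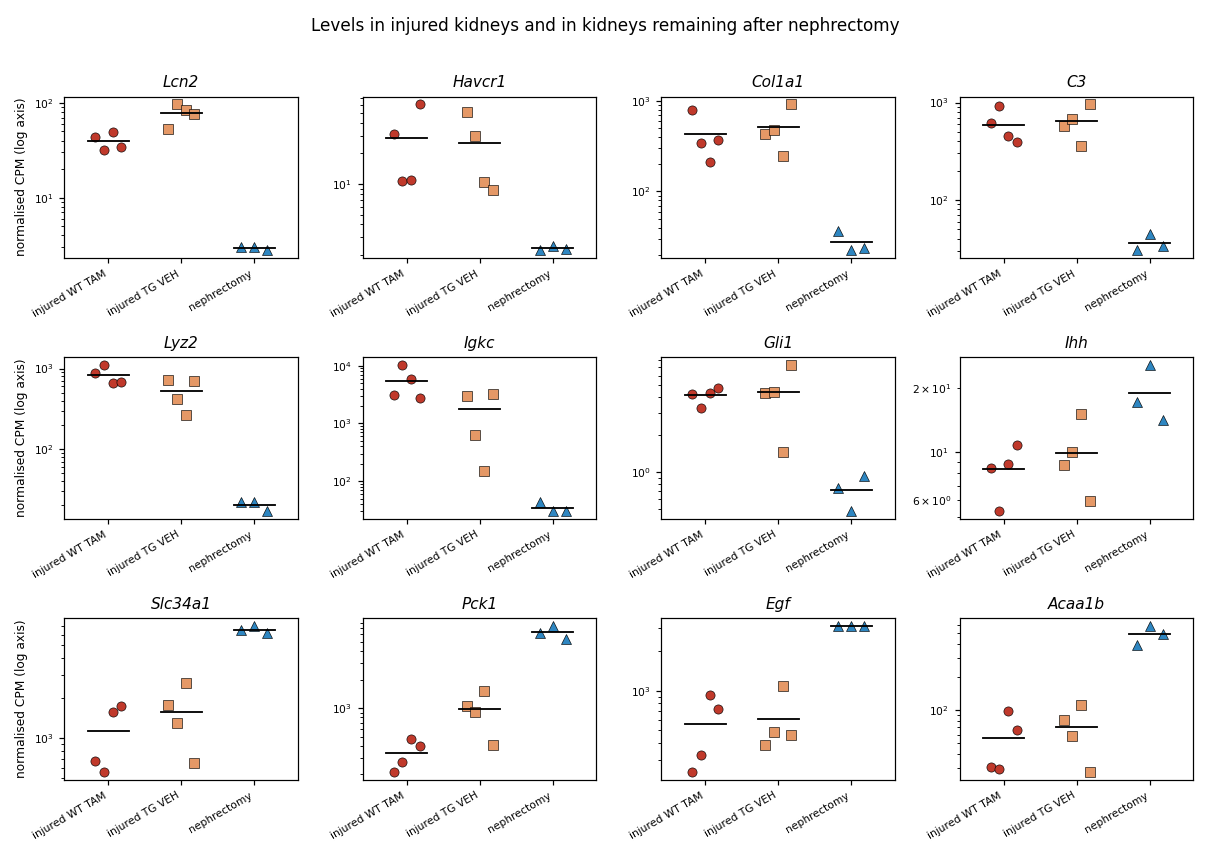
Normalised CPM on log axes for 12 genes in the wild-type tamoxifen (circles) and floxed vehicle (squares) injured libraries and in the nephrectomy libraries (triangles), each point 1 library and each bar a group mean. Lcn2, Col1a1, C3 and Lyz2 show 8 injured libraries above 3 nephrectomy libraries, and Slc34a1, Pck1, Egf and Acaa1b the reverse order.

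Scar genes rose almost throughout. Of 39 matrix and myofibroblast genes 38 rose, 32 of them by more than 2-fold (median 2.57). Col1a1, a chain of fibrillar collagen I, stood at 793, 340.2, 212 and 373 and 431, 471, 246 and 925 normalised CPM in the injured arms and at 36.8, 22.4 and 24.0 after nephrectomy, with no overlap (log2 4.08, SE 0.56, edgeR adjusted p = 0.000155). Lox, which crosslinks collagen, rose by 4.40 (SE 0.47), Mmp2, a gelatinase of fibroblasts, by 3.97 (SE 0.50), and Ltbp2, an elastic fibre protein, by 4.61 (SE 0.49). Acta2, the smooth muscle actin of myofibroblasts and vessel walls, ranged from 40.6 through 72.2 to 146 against 21.7, 16.9 and 16.7 (log2 2.12, SE 0.35, edgeR adjusted p = 0.00043). Nephrectomy library 1 was the highest of the 3 for 33 of the 39 genes, against 34.8% of all genes, and library 2 the lowest for 32, against 25.8%. Without library 1 37 of 39 rose, and without library 2 35.

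Among 11 Hedgehog response genes 6 rose and 1 fell (median 1.53), while the ligand Ihh was lower. Of all genes 36.6% rose and 33.3% fell. Hedgehog ligands bind Ptch1, which frees Smo and turns on Gli transcription factors, and Gli1, Ptch1 and Hhip are themselves targets. Ihh stood at 8.41, 5.31, 8.84 and 10.8 normalised CPM in the wild-type tamoxifen libraries, 8.69, 10.1, 15.1 and 5.91 in the floxed vehicle arm and 17.1, 25.6 and 14.2 after nephrectomy. All but 1 injured library, floxed vehicle library 3, lay below the nephrectomy libraries, and Ihh fell (log2 -1.07, SE 0.28, edgeR adjusted p = 0.00625). The call was lost without nephrectomy library 2 (log2 -0.79, edgeR adjusted p = 0.0556) and under scaling by library totals alone (log2 -0.53, edgeR adjusted p = 0.0865). Of the other ligands, Dhh was at 1.25 (SE 0.44, edgeR adjusted p = 0.027), at levels of 0.494 to 2.35 against 0.593, 0.433 and 0.464, and did not pass without any 1 of the 3 nephrectomy libraries (log2 1.42, edgeR adjusted p = 0.053, log2 1.13, edgeR adjusted p = 0.103 and log2 1.21, edgeR adjusted p = 0.067). Shh was at 0.07 (SE 0.28, edgeR adjusted p = 0.843).

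Gli1 stood at 4.29, 3.30, 4.34 and 4.74 and 4.34, 4.45, 1.44 and 7.33 in the injured arms and at 0.741, 0.482 and 0.927 after nephrectomy. Every injured library was above every nephrectomy library, and the rise was log2 2.64 (SE 0.48, edgeR adjusted p = 0.000726). Gli3, a Gli factor that acts mostly as a repressor, rose by 2.14 (SE 0.37), the co-receptors Cdon and Boc by 1.84 (SE 0.17) and 1.53 (SE 0.25), and the decoy receptor Hhip by 2.77 (SE 0.81, adjusted p 0.0522 without nephrectomy library 1). Ptch1 was at -0.16 (SE 0.09, edgeR adjusted p = 0.127) with TMM and at log2 0.38, edgeR adjusted p = 0.00453 with library totals alone, so no direction is given for it. Sufu, which holds Gli factors in the cytoplasm, was the member that fell, by 0.92 on the log2 scale (SE 0.12, edgeR adjusted p = 0.000143), from 82.8, 88.8 and 97.7 to between 39.1 and 56.7.

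Cell division and interferon genes rose together with the leukocyte genes. All 18 proliferation genes rose (median 2.09) and all 14 interferon response genes (median 2.41). Mki67, a marker of cycling cells, ranged from 23.1 through 57.4 to 129.6 against 9.19, 8.00 and 6.34 (log2 2.85, SE 0.50, edgeR adjusted p = 0.000609), Top2a, the topoisomerase of dividing cells, rose by 3.08 (SE 0.52) and Bub1b, a spindle checkpoint kinase, by 3.12 (SE 0.40). Gbp2, an interferon-induced GTPase, rose by 3.10 (SE 0.49), Zbp1, a sensor of nucleic acids, by 3.96 (SE 0.72) and Mx1, an antiviral GTPase, by 3.33 (SE 0.64). Wild-type tamoxifen library 2 was the highest of the 8 injured libraries for all 18 proliferation genes, all 17 lymphocyte genes, all 8 class II genes and 9 of the 14 interferon genes, against 21.2% of all genes. The part of dividing leukocytes in the proliferation count was not tested.

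Proximal tubule genes fell without exception: 30 of 30, of which 26 by more than 2-fold (median -2.03). Slc34a1, the phosphate carrier of the brush border, stood at 675, 556, 1569 and 1741 normalised CPM in the wild-type tamoxifen libraries, 1784, 1308, 2599.8 and 657 in the floxed vehicle arm and 6464, 7025 and 6158 after nephrectomy. The groups did not overlap (log2 -2.29, SE 0.40, edgeR adjusted p = 0.000589). Lrp2, the endocytic receptor megalin, ran from 1384 to 6321 against 12482, 13112 and 12728 (log2 -1.97, SE 0.40, edgeR adjusted p = 0.00136). Pck1, the rate-limiting enzyme of gluconeogenesis, fell by 3.47 (SE 0.33) and G6pc, which releases the glucose, by 3.01 (SE 0.46) on the log2 scale. Slc22a7, an organic anion transporter, changed by -2.99 (SE 0.39) and Slc13a3, a dicarboxylate carrier, by -2.98 (SE 0.40). Groups did not overlap for 29 of the 30 genes, where 28.4% of all genes lay apart on the lower side.

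Genes of fat burning and respiration fell as well. All 24 fatty acid oxidation genes were lower (median -1.74), and so were all 23 respiratory chain genes (median -1.58). Groups overlapped for none of the 47, where 28.4% of all genes lay apart on the lower side. Acaa1b, a peroxisomal thiolase, ranged from 27.2 through 61.8 to 112 against 396, 588 and 498 (log2 -2.98, SE 0.41, edgeR adjusted p = 0.000156). Ehhadh, a bifunctional enzyme of peroxisomes, changed by -2.58 (SE 0.37) and Acadm, the medium-chain dehydrogenase of mitochondria, by -2.24 (SE 0.24). Cyc1, cytochrome c1, changed by -1.75 (SE 0.20) and Ndufa4 by -1.76 (SE 0.19). Of the largest falls that met the naming rule, Gldc, the glycine decarboxylase, was at -3.17, Slc16a14, a carrier of the monocarboxylate family, at -3.01 and Mogat2, an acyltransferase of triglyceride synthesis, at -3.38. Cyp4a14, a fatty acid hydroxylase with near-identical neighbours, was at -4.83, and its assignment between copies is uncertain.

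Glycolysis genes split. Of 18 tested 4 rose and 11 fell (median -0.92), against 36.6% and 33.3% of all genes. With library totals alone 5 were higher and 9 lower (median -0.39). Hk2, the inducible hexokinase, ranged from 17.8 to 49.9 against 10.2, 1.49 and 0.773 (log2 2.80, SE 0.64, edgeR adjusted p = 0.0027). The highest of those 3 was nephrectomy library 1, which held heart RNA, and without it the change was log2 4.64, edgeR adjusted p = 0.000302. Pfkfb3, which makes the activator of phosphofructokinase, rose by 1.73 (SE 0.20). Gapdh and Pgk1, of the lower part of the pathway, changed by -1.46 (SE 0.20) and -1.45 (SE 0.19). Hk2, Pfkfb3, Gapdh and Pgk1 were named for the size of their changes, so they do not stand for the upper or lower part of the pathway.

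Distal convoluted tubule genes were lower too. All 9 distal convoluted tubule genes fell (median -1.72). Of 8 loop of Henle genes 5 fell and 2 rose (median -1.06), against 33.3% and 36.6% of all genes, and 1 rose without nephrectomy library 1. Of 14 collecting duct genes 5 fell and 1 rose (median -0.70), near the 33.3% of all genes that fell. That list gave 8 lower without wild-type tamoxifen library 3, 3 without any 1 nephrectomy library, 8 in a fit of 29 libraries and 11 with a replicate block, so no direction is given for it. Slc12a3, the thiazide-sensitive salt carrier, ranged from 199.6 to 1214 against 2198, 2119 and 1974 (log2 -2.05, SE 0.39, edgeR adjusted p = 0.000894), and Calb1, a calcium buffer of the same cells, changed by -2.32 (SE 0.40). Egf, the growth factor made in the loop and distal tubule, stood at 241, 324, 929.7 and 727 and 389, 487, 1092 and 461 in the injured arms against 3108, 3074 and 3107, and fell by 2.41 on the log2 scale (SE 0.39, edgeR adjusted p = 0.000386).

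Within the loop of Henle the members parted. Umod, uromodulin of the thick ascending limb, ranged from 1534 to 3339.9 against 4924, 5890.1 and 5102 (log2 -1.27, SE 0.22, edgeR adjusted p = 0.000564). Slc12a1, the furosemide-sensitive salt carrier of the same limb and chosen after its values were seen, was at -0.39 (SE 0.22, edgeR adjusted p = 0.134) and at log2 0.14, edgeR adjusted p = 0.553 with library totals alone. Cldn19, a tight junction protein of that limb needed for magnesium uptake and also chosen after its values were seen, was higher, with 33.2 to 89.5 against 32.1, 35.4 and 36.2 (log2 0.95, SE 0.22, edgeR adjusted p = 0.00336). In the collecting duct Scnn1a, the alpha subunit of the sodium channel, fell by 1.45 (SE 0.26) and Slc26a4, the pendrin anion exchanger, by 1.47 (SE 0.37) on the log2 scale. With library totals alone 2 collecting duct genes were higher and 2 lower.

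Podocyte genes were higher: 8 of 8 rose, 4 by more than 2-fold (median 1.39). Synpo, synaptopodin of the podocyte's actin skeleton, stood at 208, 168, 111 and 133 in the wild-type tamoxifen arm, 104, 198, 157 and 199.7 in the floxed vehicle arm and 58.5, 51.0 and 55.2 after nephrectomy, with no overlap (log2 1.54, SE 0.24, edgeR adjusted p = 0.000296). Floxed vehicle library 1 was the lowest of the 8 injured libraries for 7 of the 8 podocyte genes, against 11.6% of all genes. Without 1 nephrectomy library 6 or 7 of the 8 passed. Endothelial genes rose in 5 of 14, near the 36.6% of all genes, and fell in 2 (median 0.23). They rose in 10 with library totals alone and in 3 without nephrectomy library 2, which held the lowest nephrectomy level for 10 of the 14 (25.8% of all genes), while library 1 held the highest for 11 (34.8%). Pecam1, an adhesion molecule of all endothelium, rose by 0.96 (SE 0.16) and Vwf, von Willebrand factor, by 1.56 (SE 0.22), while Esm1, a proteoglycan of growing vessels, fell by 1.44 (SE 0.22) and Vegfa, the growth factor that tubules and podocytes supply to vessels, by 1.21 (SE 0.16) on the log2 scale.

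Genes tied to growth of the remaining kidney changed in both directions after injury. Of 21 growth factor genes 6 rose and 11 fell with TMM scaling (median -0.59), where 36.6% of all genes rose and 33.3% fell. The counts were 7 and 6 with library totals alone (median -0.06), so no direction is given for the growth factor list. Among those that rose were Igf1 by 2.00 (SE 0.26), Hgf, the hepatocyte growth factor, by 2.56 (SE 0.45) and Fgf2 by 2.25 (SE 0.42). Gdf15, a stress-induced hormone, ranged from 3.80 to 27.6 against 24.8, 72.1 and 99.2 (log2 -2.72, SE 0.37, edgeR adjusted p = 0.000157). Ghr, the growth hormone receptor, changed by -1.99 (SE 0.31) and Odc1, the first enzyme of polyamine synthesis, by -1.82 (SE 0.30), both chosen after their values were seen. Of 19 mTOR and amino acid sensing genes 4 rose and 10 fell, a split that turned to 11 and 3 with library totals alone, so no direction is given for that list. Slc7a5, an amino acid importer, rose by 1.98 (SE 0.28), and Mtor was at -1.29 (SE 0.22).

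Renin-angiotensin genes fell in 8 of 9 (median -0.69) and in 3 of 9 with library totals alone. Ren1, renin of the juxtaglomerular cells, stood at 5.40, 3.95, 8.21 and 7.33 and 8.11, 14.2, 12.3 and 12.6 against 29.3, 29.2 and 32.9, with no overlap (log2 -1.83, SE 0.21, edgeR adjusted p = 7.56e-05), and Ace, the converting enzyme, changed by -2.12 (SE 0.36). Cholesterol synthesis genes fell in 15 of 18 (median -0.88) and in 9 with library totals alone. Hmgcs1, at the entry of the pathway, changed by -1.99 (SE 0.23) and Mvd, the mevalonate decarboxylase, by -2.12 (SE 0.19).

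Other tissues that a kidney sample can hold varied too. All 7 urothelial genes rose (median 2.56), 4 of 7 without nephrectomy library 1, with a summed level of 11.04 to 85.9 CPM of library totals in the injured and 2.06 to 5.93 in the nephrectomy libraries. Upk3b, a uroplakin also made by mesothelium, rose by 3.33 (SE 0.61). Adipocyte genes summed to 13.3 to 294 CPM in the injured and 6.97 to 37.1 CPM in the nephrectomy libraries, and none of 7 passed (2 of 7 higher without nephrectomy library 1). Erythroid genes summed to 412 to 2858 and 248.6 to 400.7 CPM, and none of 6 passed. The part of pelvis, fat or blood in the sampled tissue was not tested.

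Levels of several lists differed among the 8 injured libraries. Floxed vehicle library 3 held the highest level of the 8 for 22 of 30 proximal tubule genes, 22 of 24 fatty acid oxidation genes, 22 of 23 respiratory chain genes and 8 of 9 distal convoluted tubule genes, against 23.2% of all genes. It held the lowest level for 26 of 39 matrix, 15 of 18 macrophage, 13 of 17 lymphocyte and 12 of 16 complement genes, against 23.9% of all genes. At the other end, wild-type tamoxifen library 2 was the lowest for 14 of 30 proximal tubule and 18 of 23 respiratory chain genes, against 17.4% of all genes, and floxed vehicle library 4 was the lowest for another 14 proximal tubule genes, against 12.7%. Floxed vehicle library 4 was also the highest for 24 of 39 matrix genes, against 9.34% of all genes. The libraries most often lowest and most often highest for matrix genes thus belonged to the same arm. The part of injury, of the piece of kidney sampled or of technical spread in these ranks was not tested.

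The remaining kidney after nephrectomy differed from an uninjured contralateral kidney in stress genes. Here too, strain cannot be told apart from the nephrectomy in the floxed vehicle arm, nor tamoxifen in the wild-type tamoxifen arm. Time cannot be told apart from it in either arm. The uninjured contralateral kidneys of the same 2 injured arms, 8 libraries, were fitted together with the 11, and against nephrectomy 588 of 17166 genes differed at an edgeR adjusted p of 0.05 (3.43%), 217 higher (1.26%) and 371 lower (2.16%) in the contralateral kidney. With library totals alone 351 were higher and 236 lower, so the balance of directions turned with the scaling. The number was 381, 199 and 253 without nephrectomy library 1, 2 or 4, and 1286 without contralateral floxed vehicle library 2. That contralateral library stood apart, with 1.05% of counts from the kidney genes and 5.55% from mitochondrially encoded genes. The other contralateral libraries of these arms held 1.93% to 2.23% and 2.51% to 4.05%. Of 16 immediate early genes, transcription factors and phosphatases that respond to a stimulus within minutes, 11 were lower in the contralateral kidney and none higher (7 and 9 were lower without nephrectomy library 2 or 4, and 11 with library totals alone), and of 26 TNF and NF-kB response genes 6 were lower and none higher (4 without nephrectomy library 2 or 4). The injured kidney against nephrectomy showed 3 immediate early genes higher and 5 lower (median -0.50), near the shares of all genes (36.6% and 33.3%). The counts were 4 and 2 with library totals alone (median 0.04), so no direction is given for that contrast. Nephrectomy library 1 held the lowest nephrectomy level for 13 of the 16, against 32.1% of all genes. Leaving out either that library or wild-type tamoxifen library 1 gave 8 lower, and leaving out nephrectomy library 4 gave 3. Against the contralateral kidney 13 were higher and none lower (median 1.44), where 72.8% of all genes differed, 38.7% higher and 34.1% lower. The TNF list gave 24 higher and 1 lower against the contralateral kidney. These contrasts share libraries, so they are given side by side only.

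Cxcl1 shows the order of the groups. In the joint fit it ranged from 0.689 through 1.93 to 2.82 normalised CPM in the contralateral libraries, from 3.98 through 13.3 to 69.0 in the injured libraries and stood at 14.7, 93.7 and 73.4 after nephrectomy. Contralateral kidneys were lowest and did not overlap either of the other groups. Contralateral against nephrectomy was log2 -4.97 (SE 0.46, edgeR adjusted p = 7.08e-06), injured against contralateral 3.11 and injured against nephrectomy -1.86.

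Atf3, a stress-induced repressor, stood at 0.697 to 4.66 in contralateral, 5.75 to 26.9 in injured and 10.7, 14.3 and 24.0 in nephrectomy libraries, with the contralateral libraries below all others. Injured against nephrectomy was log2 -0.08 and contralateral against nephrectomy -3.07 (SE 0.44, edgeR adjusted p = 0.00073). Nr4a3, an orphan nuclear receptor of the immediate early class, was at -3.97 (SE 0.39) in contralateral against nephrectomy, Plk3, a stress kinase, at -4.12 (SE 0.32), Dusp1, a phosphatase that ends MAP kinase signals, at -2.28 (SE 0.37) and Slc25a25, a calcium-regulated ATP carrier of mitochondria, at -2.86 (SE 0.25). In the injured kidney Slc25a25, which met the naming rule for the largest falls, was at -3.31 against nephrectomy and at -0.46 against the contralateral kidney. Sgk1, a glucocorticoid- and aldosterone-induced kinase, was likewise at -2.56 in the contralateral and -2.15 in the injured kidney against nephrectomy, and at 0.42 between the 2. For both genes the injured and the contralateral kidney lay below the kidney after nephrectomy, without overlap. Genes named among the largest changes of a contrast were kept only where the compared groups did not overlap. Lack of overlap is therefore no further result for such genes, above, below and in the figures.

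A pair of circadian clock genes separated the comparison kidneys as well. Nr1d1, the REV-ERB alpha repressor of the clock, ranged from 51.4 to 90.7 normalised CPM in contralateral, from 37.6 to 73.7 in injured and stood at 9.34, 4.34 and 7.44 in nephrectomy libraries. Cry1, a repressor with another phase, was 2.35 to 7.71, 5.39 to 9.02 and 26.5, 35.2 and 31.5. In both genes the nephrectomy libraries stood apart from all 16 others. Contralateral against nephrectomy was log2 3.33 (SE 0.28) for Nr1d1 and -2.67 (SE 0.22) for Cry1, both with an edgeR adjusted p = 3.07e-06, and injured against nephrectomy 2.87 (SE 0.31) and -2.11 (SE 0.15). Of 16 clock genes, a list made after these 2 values were seen, 1 was higher and 4 were lower in the contralateral kidney against nephrectomy, and 2 were higher and 8 lower in the injured kidney. With library totals alone the injured counts were 4 and 3, so no direction is given for the list. The labels give no hour of harvest, and the part of the hour or of the operation in these differences was not tested.

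**Figure D3:**
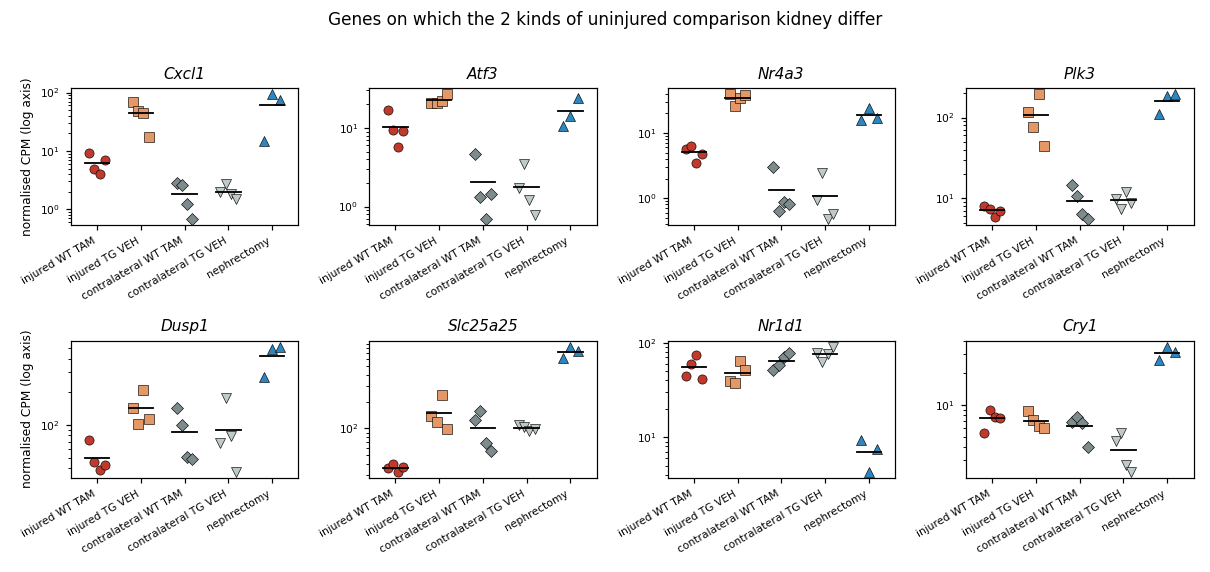
Normalised CPM from the joint fit, on log axes, for 8 genes in injured, contralateral and nephrectomy libraries, each point 1 library and each bar a group mean. For Cxcl1, Atf3 and Nr4a3 the contralateral libraries lie lowest, and for Nr1d1 and Cry1 the 3 nephrectomy libraries lie apart from the other 16.

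The 2 injured arms differed from nephrectomy by different amounts in few genes. Of 16784 genes 121 passed for the difference (0.721%), 16 higher with wild-type tamoxifen (0.0953%) and 105 higher with floxed vehicle (0.626%). Strain and tamoxifen differ together between the arms, so their parts cannot be told apart. Leaving out single libraries gave 25 to 279 calls, with 279 without floxed vehicle library 1. It gave 31, 59, 25 and 35 without wild-type tamoxifen libraries 1 to 4, 26 and 42 without floxed vehicle libraries 2 and 3, and 54 without nephrectomy library 2. Cyp27b1, which activates vitamin D, stood at 1.57, 1.36, 3.33 and 2.22 normalised CPM with wild-type tamoxifen, 49.1, 44.6, 131 and 41.1 with floxed vehicle and 26.7, 37.4 and 53.9 after nephrectomy. It was far below nephrectomy in the first arm (log2 -4.21, SE 0.49) and not shown to differ from it in the second (0.77, SE 0.45, edgeR adjusted p = 0.156), a difference of -4.97 (SE 0.49, edgeR adjusted p = 0.00442).

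Stress genes differed between the arms as well. Plk3 stood at 8.82, 8.22, 6.40 and 7.42 with wild-type tamoxifen, 126, 82.9, 210.2 and 48.9 with floxed vehicle and 121, 202 and 209 after nephrectomy, so that the 2 arms did not overlap and the floxed vehicle libraries reached into the nephrectomy range (difference -3.92, SE 0.42, edgeR adjusted p = 0.00614). The difference was -2.76 for Nr4a3 (SE 0.22) and -2.03 for Slc25a25 (SE 0.24). Fasn and Scd1, enzymes of fatty acid synthesis, went the other way: Scd1 stood at 2009.8, 657, 733 and 2446 with wild-type tamoxifen, 224, 292, 166 and 62.5 with floxed vehicle and 526, 494 and 492 after nephrectomy, a difference of 2.97 (SE 0.54, edgeR adjusted p = 0.0389), and Fasn differed by 2.36 (SE 0.38, edgeR adjusted p = 0.0264). With 1 library left out, the difference passed in 3 of 11 fits for Scd1 (edgeR adjusted p up to 0.120) and in 6 of 11 for Fasn (edgeR adjusted p up to 0.0760), against 11 of 11 for Cyp27b1, Plk3, Nr4a3 and Slc25a25. Neither Fasn nor Scd1 passed for the 2 arms together (log2 0.57 and 0.05; Fasn passed with library totals alone, log2 1.10, edgeR adjusted p = 0.0172), where the arms lay on either side of nephrectomy. No gene of the matrix, macrophage, lymphocyte or Hedgehog response lists passed for the difference, at 0 of 39, 18, 17 and 11, which is near the 0.721% of all genes that passed and says nothing particular of these lists. By edgeR 2330 of all genes had an unadjusted p under 0.05, and 732 passed by DESeq2.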

How the data were processed

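Bulk RNA of mouse kidney was sequenced. The deposited table holds expected counts per transcript, made by the authors with Salmon 1.4, per the submitters' processing notes; 83.2% of positive values are not whole. Values of 105281 of 105833 transcripts were summed to 33714 genes by GENCODE M21 and rounded to whole numbers. The 552 unmatched transcripts held 0.185% of counts. The genome build that the authors aligned to is not given in the sources used here.

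Genes with low counts were removed by edgeR's filterByExpr, leaving 16784. edgeR 4.0.16 in R 4.3.3 fitted TMM-scaled counts of the 11 libraries with its quasi-likelihood test and Benjamini-Hochberg adjustment, each injured arm weighted equally. Each SE is the size of the log2 change divided by the square root of its F statistic, so it is no measure apart from the test. More than 2-fold was tested with glmTreat. A second fit added the 8 contralateral libraries (17166 genes). Splitting reads between near-identical genes is left to Salmon, so values of immunoglobulin, class II and Cyp4a genes are uncertain between copies. The scripts were tested on simulated counts.

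Genes were named by a rule. It took 17 study and kidney genes, up to 4 per list and the 15 largest changes per direction. It also took the 10 largest per direction of the other contrasts. All of these largest changes had to have groups apart in CPM and a mean of at least 1 CPM. Immunoglobulin and T cell receptor segments, predicted genes and pseudogenes were left out of the largest changes (175 of 3340 eligible higher, 43 of 1969 eligible lower). Igkc was named from a gene list, to which that exclusion did not apply. Boc, Cdon, Cfb, Cldn19, Csf1, Cxcl2, Cxcl10, Ghr, Gsta4, Hmox1, Igf1, Il6, Nfkb2, Nfkbia, Odc1, Slc12a1, Sox9, Sufu and Tnfaip3 fall outside the rule and were chosen after their values were seen. A few genes that met it are not reported here. The libraries and gene lists were chosen with earlier results of these data known. Alternatives were RLE scaling, no filter, library totals alone (added after seeing the data), DESeq2 1.42.0, more libraries in the fit, a replicate block and leaving out single libraries.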

Additional observations from a re-analysis of the deposited data

Results flagged for a closer look

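The injured arms differed, by the test of the difference itself, in 10 of the genes named above. As wild-type tamoxifen minus floxed vehicle on the log2 scale the values were -0.98 for Lcn2, -1.48 for Sox9, -2.03 for Slc25a25, -2.76 for Nr4a3, -3.92 for Plk3, -4.24 for S100a8, -4.96 for S100a9 and -4.97 for Cyp27b1. Of the enzymes of fatty acid synthesis, Scd1 differed by 2.97 and Fasn by 2.36. Those of Lcn2, Sox9, S100a8, S100a9, Scd1 and Fasn did not pass in every fit that left out 1 library.

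Single libraries stood far from the other 3 of their arm in 10 of 238 sets of 4 values tested, about the 1 in 20 that chance gives. Floxed vehicle library 3 was high for Egf at 1092 normalised CPM and for Cyp27b1 at 131 normalised CPM. Floxed vehicle library 4 was low for Fasn at 112, and floxed vehicle library 1 low for Myh6 at 0.179 normalised CPM. Wild-type tamoxifen library 3 was high for Cyp4a14 at 22.6 and Mogat2 at 5.18, and low for Ccl2 at 4.12 normalised CPM. Wild-type tamoxifen library 2 was high for Top2a at 112.0, Gbp2 at 122 and Myh6 at 3.16 normalised CPM.

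Nephrectomy library 3, which entered only the alternative fits that kept it, drew 5.83% of its counts from 10 heart genes.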

How the results depend on the processing

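The count of genes that differed between injured and nephrectomy kidneys was 11726 with RLE scaling, 12008 with DESeq2, 11539 without a filter and 10235 to 11759 when 1 library was left out. Keeping nephrectomy library 3 gave 7695, with 6941 in the wild-type tamoxifen arm, 5752 in the floxed vehicle arm and 1561 past 2-fold. The 2-fold count ran from 2143 to 3981 when 1 library was left out. The arm difference gave 391 calls in a fit of 29 libraries, 2 with nephrectomy library 3 kept, 732 with DESeq2 and 25 to 279 when 1 library was left out. Contralateral against nephrectomy gave 1261 with library 3 kept, 1197 with DESeq2 and 199 to 1286 when 1 library was left out. The cause was not tested.

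Pairing by column number was checked only between the injured arms and the nephrectomy group, which no label pairs. Deviations of same-numbered libraries correlated at -0.607 to 0.424 over 10 pairs, and own number was best in 1. Injured and contralateral libraries of the same number were not compared in this way. A replicate block by that number gave 11177 calls, and 23 for the arm difference.

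Log2 changes against nephrectomy that reversed were mostly of genes that did not pass. With library totals alone Atf3 was at 0.462, Cxcl10 at 0.401, Nfkbia at 0.258, Nr4a3 at 0.017, Ptch1 at 0.376 and Slc12a1 at 0.145. With the replicate block Atf3 was at 0.0429 and Cxcl10 at 0.0529. With nephrectomy library 3 kept Cxcl10 was at 0.252, Hk2 at -3.11, Pecam1 at -0.48, Ptch1 at 0.0388, Scd1 at -0.122, Slc12a1 at 0.0259, Upk3b at -0.436 and Vwf at -2.32, and contralateral against nephrectomy was -0.636 for Lox and -0.67 for Pecam1. Leaving out 1 library gave -0.313 to 0.273 for Atf3, -0.708 to 0.257 for Cxcl10, -0.445 to 0.834 for Cxcl2, -0.134 to 0.195 for Scd1, -0.09 to 0.349 for Shh, -0.105 to 0.626 for Tnfaip3 and -7.15 to 0.843 for Myh6. Few nephrectomy libraries, 1 with heart RNA and 1 of 8.32 M counts, limit what small differences can show.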
